A study of Mus musculus with 18 samples.

Results

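The MYC, MAX and MXD network was followed through fat cell differentiation in 9 mouse genes: Myc, Mycn, Max, Mxd1, Mxd3, Mxd4, Mxi1, Mnt and Mga. They were chosen by name among 25209 genes listed in each of 18 libraries of polyadenylated RNA, not by their values. The cells were 3T3-L1, an established mouse fibroblast line that becomes fat cells when given inducers. Each of 6 groups had 3 libraries: Control, MCE1, MCE2, Day4, Day6 and Day8. MCE stands for mitotic clonal expansion, the rounds of division that induced 3T3-L1 cells pass through before they differentiate. Per the protocol in the labels, the inducers were 10 µg/mL insulin, 0.25 µM dexamethasone (a glucocorticoid) and 0.5 mM IBMX (a phosphodiesterase inhibitor), given for 48 h from 2 days after confluence. Medium with 5 µg/mL insulin followed, renewed every 2 days. When MCE1 and MCE2 were collected is not labelled, nor do the labels say whether the Control cells were collected before induction or kept without inducers. No genotype or transgene sets the groups apart. Nothing in the labels says that replicates came from separate cultures, so the p-values below measure only the spread between these libraries.

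MYC is a transcription factor that binds DNA as a pair with MAX, its obligate partner, at the E-box CACGTG, and drives genes of ribosome building, metabolism and division. MXD1, MXD3, MXD4, MXI1 and MNT compete with MYC for MAX and, through SIN3 corepressors and histone deacetylases, repress such genes, whereas MGA joins MAX within a Polycomb complex called PRC1.6. In cultured preadipocytes MYC is induced early by growth signals, and forced MYC is known to block their differentiation, while MXD genes are commonly switched on as cells leave the cycle.

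Levels are given in TPM, StringTie's measure of transcript abundance per gene, which corrects for transcript length, so that levels of different genes can be set side by side. Changes are differences of log2(TPM + 1) from limma, called log2 changes here; adding 1 understates the change of genes at a few TPM. A gene was called at a Benjamini-Hochberg adjusted p under 0.05 over 12695 genes, those that reached 1 TPM in 3 or more libraries. Of the 9 genes 8 passed that filter, and Mycn did not. Read depth is unknown, since TPM does not keep it. Listed TPM summed to 869497 to 880273 per library, and 11035 to 11850 genes reached 1 TPM. Replicates correlated at 0.976 to 0.991 within groups (Pearson's r on the log2 scale). The table of Control replicate 1 listed 12 genes at another locus than the other libraries did, none of them a network gene. Summed TPM of 10 fat cell markers was 158 to 173 in Control and 29295 to 32700 in Day8. The sum of 10 markers of dividing cells was 1774 to 1899 TPM in Control, 2648 to 2733 in MCE1, 955 to 1082 in MCE2, 352 to 368 in Day4, 380.3 to 396 in Day6 and 244 to 252 in Day8. Of 8 macrophage markers, Adgre1, Ptprc and Itgam were at 0 in every library and the list summed to at most 19.9 TPM, while 6 endothelial markers summed to at most 1.72, 6 keratinocyte markers to at most 12.4 and 6 skeletal muscle markers to at most 45.8 TPM. In bulk RNA, fewer cells of a kind and less RNA per cell cannot be told apart.

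The E-box itself stood in the promoters of 3 of the 9 genes, shown here because it is the sequence that MYC-MAX and MXD-MAX pairs compete for. The windows are RefSeq's for GRCm38.p6, from 250 bases before to 50 bases after the start site, read 5′ to 3′ on the gene's own strand with CACGTG in capitals; the measured tables use the mm9 build, and no coordinate was carried across. The table of windows covered 8 of the 9 genes, all but Myc.
Max, chr12:76962199-76962498, minus strand: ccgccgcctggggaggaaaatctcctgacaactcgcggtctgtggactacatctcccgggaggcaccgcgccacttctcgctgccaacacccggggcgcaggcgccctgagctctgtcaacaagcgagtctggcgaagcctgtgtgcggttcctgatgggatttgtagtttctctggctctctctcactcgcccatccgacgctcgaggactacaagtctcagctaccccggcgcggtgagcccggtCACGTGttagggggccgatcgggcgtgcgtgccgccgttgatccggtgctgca
Mxd4, chr5:34187661-34187960, minus strand: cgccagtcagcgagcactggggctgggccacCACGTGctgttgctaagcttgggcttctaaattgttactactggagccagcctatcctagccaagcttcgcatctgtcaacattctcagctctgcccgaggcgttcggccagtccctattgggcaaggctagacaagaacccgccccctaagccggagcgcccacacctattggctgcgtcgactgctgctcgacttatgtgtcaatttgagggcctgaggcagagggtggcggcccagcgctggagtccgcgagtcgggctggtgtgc
Mnt, chr11:74830674-74830973, plus strand: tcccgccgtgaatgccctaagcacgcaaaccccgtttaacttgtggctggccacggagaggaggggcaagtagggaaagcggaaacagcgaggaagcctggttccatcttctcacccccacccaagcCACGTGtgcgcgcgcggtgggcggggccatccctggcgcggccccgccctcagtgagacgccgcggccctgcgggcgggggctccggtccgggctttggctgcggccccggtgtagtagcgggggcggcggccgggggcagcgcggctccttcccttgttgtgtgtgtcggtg

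Each window holds CACGTG once, which is its own reverse complement, so both strands were searched in 1 pass. The motif begins 3 bases before the start site in Max, 219 before it in Mxd4 and 123 before it in Mnt. Mycn, Mxd1, Mxd3, Mga and all 3 windows of Mxi1 hold none. CACGTG occurred in 8.09% of 27025 genes with a window and in 11.5% of the 9801 tested genes that had one. A match of these letters is a description of the window and does not show that any factor binds there, and the 3 genes that hold it did not move together: Max was not called in any comparison, Mxd4 ended higher than Control and Mnt ended lower.

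**Figure D1:**
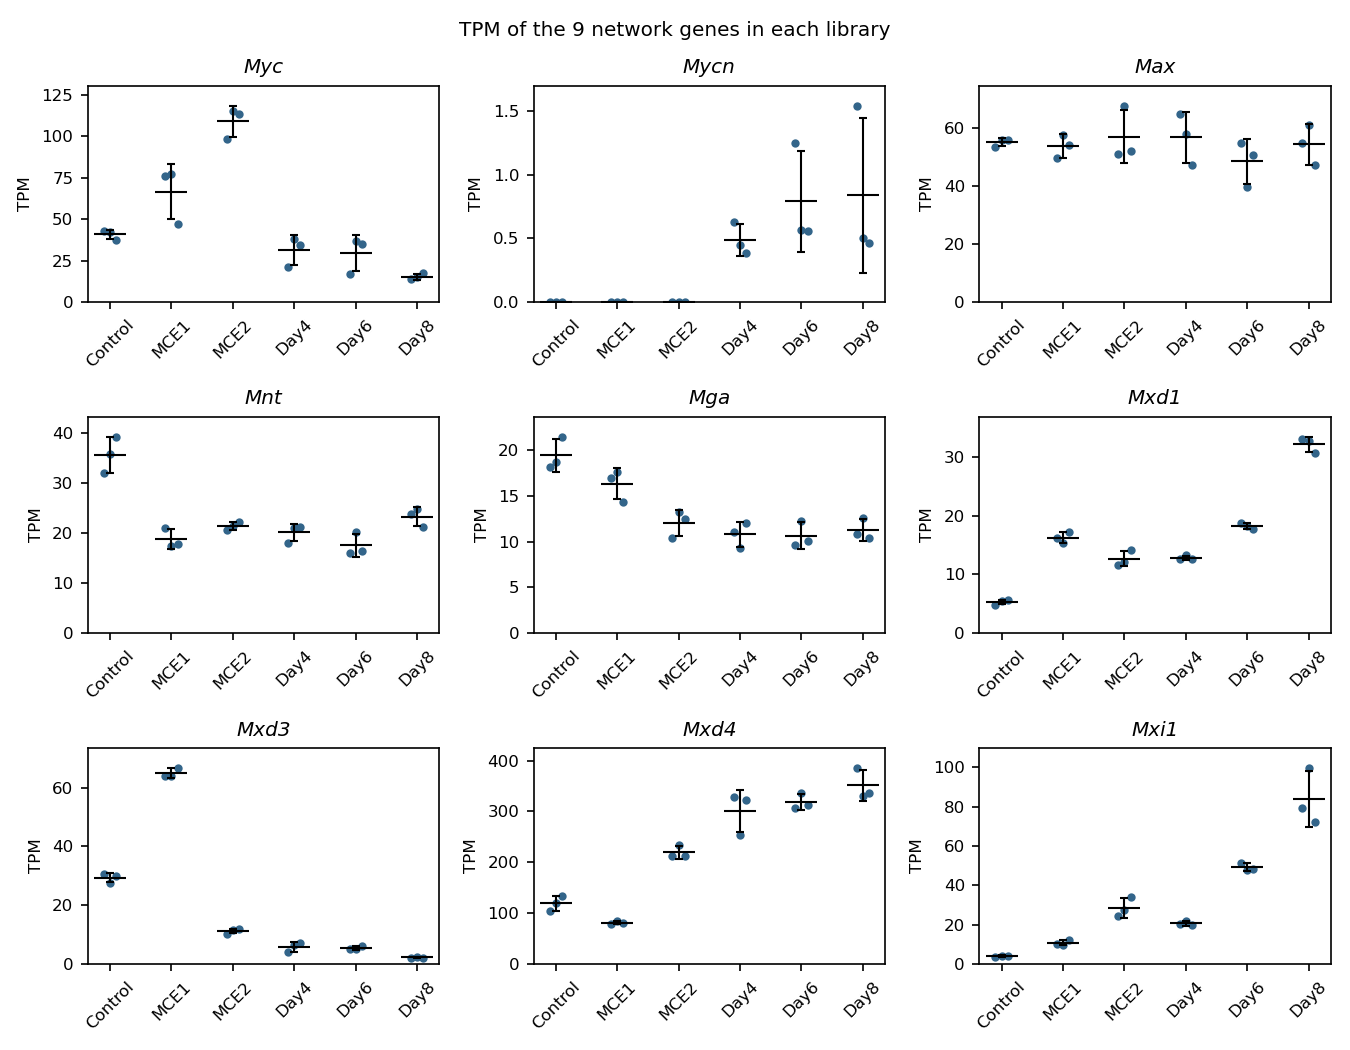
TPM of the 9 network genes (vertical axes, linear from 0) in the 6 groups (horizontal axes); points are libraries, and the bars show the mean and SD of 3 libraries. Myc peaked at MCE2 with 98.2 to 115 TPM, Mxd3 at MCE1 with 64.0 to 66.8 TPM, and Mxi1 and Mxd1 at Day8 with 72.3 to 99.8 and 30.7 to 33.1 TPM, whereas Max stayed between 39.8 and 67.6 TPM.

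Most of the network changed. Against Control, 6 of the 8 tested genes were called at MCE1, 4 higher and 2 lower, where 51.4% of all tested genes were called, 22.0% higher and 29.4% lower. At MCE2, 4 were higher and 3 lower, against 62.5% of all genes called, 23.4% higher and 39.1% lower. Day4 had 3 higher and 3 lower (all genes 69.0%, with 29.7% higher and 39.3% lower), and Day6 also 3 and 3 (69.7%, with 30.2% higher and 39.4% lower). Day8 had 3 higher and 4 lower (71.4%, with 31.7% higher and 39.7% lower). With 8 genes, these shares are too coarse to compare with those of all genes. The result is in which genes moved and in which direction. Mxd1 and Mxi1 were higher than Control in all 5 later groups, Mnt was lower in all 5, and Max was called in none. Mxd3 and Mxd4 each changed direction between MCE1 and MCE2. The median log2 change of all tested genes was -0.17 at MCE2 and between -0.12 and -0.06 in the other groups against Control. Scaling the libraries to each other by median ratios moved the MCE2 median to 0.00, and no member's call against Control changed with it.

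Myc, the network's activator (chr15:61816896-61821916 in mm9, as are all gene positions below), was at its highest at MCE2. It had 42.9, 42.0 and 37.6 TPM in Control, 75.8, 77.1 and 47.3 in MCE1, 98.2, 115 and 114 in MCE2, 21.1, 38.3 and 34.7 in Day4, 16.8, 36.8 and 35.0 in Day6, and 13.8, 14.9 and 17.3 in Day8. All MCE2 libraries lay above every other library and all Day8 libraries below every Control library. Day4 and Day6 spread widely, with replicate 1 lowest in both, as it was in Day8. The mean rose to 109 ± 9.47 TPM at MCE2, against 40.9 ± 2.83 in Control (SD, n = 3 each; log2 change 1.39, SE 0.27, limma adjusted p = 0.000277). Few genes rose as much, since 4.47% of tested genes had a higher log2 change in that comparison. At Day4 Myc fell by 1.80 on the log2 scale relative to MCE2 (limma adjusted p = 3.74e-05). Day8 held 15.3 ± 1.82 TPM (SD, n = 3), a log2 change of -1.36 against Control (limma adjusted p = 0.000266). Day4 and Day6 were not called against Control (-0.41 and -0.53, limma adjusted p = 0.183 and 0.0889).

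The smaller steps of Myc were less secure. The MCE1 call against Control stood near the threshold (0.66, limma adjusted p = 0.0489), where MCE1 replicate 3 lay close to the Control libraries and replicates 1 and 2 well above them. It was lost on leaving out a single Control library, whichever it was, or either of the 2 high MCE1 libraries (0.54 to 0.70), and also when MCE2 replicate 1, 2 or 3, Day4 replicate 3 or Day8 replicate 1, 2 or 3 was left out of the fit, which left the log2 change at 0.66 (limma adjusted p = 0.0526 to 0.159 over these settings). MCE2 against MCE1 was called (0.73, limma adjusted p = 0.0370), but not without MCE1 replicate 3 (0.50) nor without MCE2 replicate 1, 2 or 3 (0.69 to 0.80). Day8 against Day6 was called (-0.83, limma adjusted p = 0.0358) although the ranges overlapped through Day6 replicate 1, and the call ended without Day6 replicate 2 or 3 or Day8 replicate 1 or 2 (-0.82 to -0.64). Without Day6 replicate 2, Day6 was called lower than Control (-0.72). Replicate 1, lowest for Myc in Day4 and Day6, also had the lowest sum of 10 fibroblast or preadipocyte markers in both, at 7021 TPM beside 7189.95 and 7687 in Day4 and at 7581 beside 9080.03 and 8424 in Day6. In Day6 it had the highest sum of fat cell markers (35291 TPM beside 32989 and 34441) and the lowest of dividing cell markers (380.3 TPM beside 396 and 382), while in Day4 it lay between the others in both. In Day8, where replicate 1 was also lowest for Myc, it had the highest fibroblast or preadipocyte sum (15307 TPM beside 11104 and 10455). That sum averaged 5339 TPM in Control, 3095 in MCE2 and 12290 in Day8, so a low sum need not mean fewer preadipocytes. The part of these markers in the Myc levels was not tested. The 3 tested genes most like Myc over the 18 libraries were Tmem132a, Snd1 and Synpo (Pearson's r 0.94 each, out of 9009 genes ranked).

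Mycn (chr12:12942899-12948642), the paralog best known from neural tissue and neuroblastoma, was listed at no more than 1.54 TPM. It was listed at 0 in all 9 libraries of Control, MCE1 and MCE2. It had 0.624, 0.446 and 0.384 TPM in Day4, 1.25, 0.565 and 0.559 in Day6, and 1.54, 0.504 and 0.467 in Day8. Replicate 1 was the highest in each of these groups, and only it passed 1 TPM. A 0 in these tables can be a failed estimate, so the zeros do not show that Mycn was absent, and Mycn was not tested and gets no fold change.

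Max (chr12:78038256-78063235), the shared partner, varied least between groups. Its libraries had 53.3, 55.7 and 55.8 TPM in Control, 49.4, 57.5 and 53.9 in MCE1, 51.1, 67.6 and 52.1 in MCE2, 64.8, 57.8 and 47.3 in Day4, 54.8, 39.8 and 50.7 in Day6, and 54.6, 61.0 and 47.1 in Day8. The groups overlapped throughout. The log2 changes of the 9 comparisons lay between -0.22 and 0.17 with an SE of 0.14, and the F test over the 6 group means gave a limma adjusted p of 0.614, while 87.6% of all tested genes passed that test. Changes of that size remain possible at this spread. No gene was closely alike over the 18 libraries, the nearest being Slc4a1ap (Pearson's r 0.70). The ratio of Myc to Max was 1.71 to 2.18 in the MCE2 libraries and 0.244 to 0.368 in the Day8 libraries.

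Among the antagonists, Mxi1 (chr19:53384996-53447783, also named MXD2) rose most. Its libraries had 3.63, 4.30 and 4.31 TPM in Control, 10.4, 9.83 and 12.1 in MCE1, 24.5, 27.3 and 34.1 in MCE2, 20.3, 22.0 and 19.8 in Day4, 51.4, 48.0 and 48.5 in Day6, and 79.2, 99.8 and 72.3 in Day8. No 2 groups overlapped. Day8 averaged 83.8 ± 14.3 TPM, against 4.08 ± 0.388 in Control (SD, n = 3 each), which is 20.5-fold in means and 4.05 on the log2 scale (SE 0.13, limma adjusted p = 9.15e-14). In that comparison 1.12% of tested genes had a higher log2 change. Most of the rise fell into 4 of the 5 intervals, with log2 changes of 1.21 for MCE1 against Control, 1.32 for MCE2 against MCE1, 1.21 for Day6 against Day4 and 0.74 for Day8 against Day6, all called. Day4 went the other way, at -0.44 against MCE2 (limma adjusted p = 0.00908), a call that ended without MCE2 replicate 3 (-0.31).

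Mxd1 (chr6:86597039-86619153), a repressor known from terminal differentiation of blood and epithelial cells, climbed in 2 phases. It had 4.85, 5.49 and 5.59 TPM in Control, 16.2, 15.3 and 17.2 in MCE1, 11.7, 12.2 and 14.2 in MCE2, 12.6, 13.3 and 12.6 in Day4, 18.7, 18.3 and 17.7 in Day6, and 33.1, 32.8 and 30.7 in Day8. Every later library was above every Control library, and the Day8 libraries were above all others. MCE1 reached 16.3 ± 0.953 TPM, against 5.31 ± 0.400 in Control (SD, n = 3 each; log2 change 1.45, SE 0.08, limma adjusted p = 4.63e-10). Levels at MCE2 were lower than at MCE1 (-0.34, limma adjusted p = 0.00366), which quantile normalization of the libraries brought to the edge of the threshold (-0.20, limma adjusted p = 0.05001), and Day4 did not differ from MCE2 beyond the spread (0.02). The second phase took in Day6 against Day4 (0.48, limma adjusted p = 0.000462) and Day8 against Day6 (0.79, limma adjusted p = 1.04e-05). The genes most like Mxd1 were H2-D1, which encodes a class I histocompatibility antigen, Lrg1 and Tapt1 (r 0.97 to 0.98).

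Mxd3 rose at MCE1 as Mxi1 and Mxd1 did (log2 change 1.12 against Control), but unlike them it then fell and ended below Control. It is the MXD gene that is known to be expressed in S phase, in cells that still divide. Its libraries had 30.5, 27.6 and 29.9 TPM in Control, 64.0, 64.0 and 66.8 in MCE1, 10.4, 11.5 and 11.9 in MCE2, 4.03, 6.36 and 7.02 in Day4, 5.01, 5.13 and 6.19 in Day6, and 2.13, 2.57 and 2.12 in Day8. MCE1 stood above every other library and Day8 below every other, and only Day4 and Day6 overlapped. The drop at MCE2, with 11.3 ± 0.779 TPM against 64.9 ± 1.63 in MCE1 (SD, n = 3 each), was a log2 change of -2.43 (SE 0.14, limma adjusted p = 1.21e-09), and 0.158% of tested genes had a lower one. Day8 against Control was -3.21 (limma adjusted p = 4.84e-12).

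The 3 tested genes most like Mxd3 over the 18 libraries were Pcna, the sliding clamp of DNA replication, Cdca5, which secures sister chromatid cohesion, and Nup85, a nuclear pore protein (Pearson's r 0.99 each, out of 9009 genes ranked). These correlations describe libraries of which 3 at a time share a group. The Mxd3 gene (chr13:55426531-55431092 in mm9) was the only member whose listed span overlapped another listed gene, Prelid1, which lies tail to tail with it on the opposite strand in the GENCODE annotation of GRCm38. The library kit named in the labels and the counting are not stated to keep strand, so reads in the overlap cannot be told apart. Prelid1 averaged 597 TPM in MCE1, 599.9 in MCE2 and 700.3 in Control, so it did not share the peak of Mxd3 at MCE1, where it was lower than Control (-0.23, limma adjusted p = 0.0212), nor the drop at MCE2 (0.01 against MCE1).

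Mxd4 (chr5:34519229-34530359) was the most abundant of the 9 in every library and the mirror of Mxd3. It had 105, 120.2 and 134 TPM in Control, 78.6, 84.2 and 81.0 in MCE1, 212, 235 and 213 in MCE2, 327, 254 and 322 in Day4, 307, 336 and 313 in Day6, and 386, 330.3 and 337 in Day8. MCE1 lay below every other library, and every library from MCE2 on lay above every Control library. The mean at MCE1 was 81.3 ± 2.83 TPM, against 119.6 ± 14.5 in Control (SD, n = 3 each; log2 change -0.55, SE 0.10, limma adjusted p = 0.000219). MCE2 against MCE1 was 1.43 (limma adjusted p = 1.06e-08), Day4 against MCE2 0.44 (limma adjusted p = 0.00141), and the steps to Day6 and Day8 were not called (0.09 and 0.14). Over the 18 libraries, the log2 levels of Mxd4 and Mxd3 correlated at -0.98. The genes most like Mxd4 were Calcoco1, Unc119 and Dipk1b (r 0.98 to 0.99).

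Mnt (chr11:74644426-74659227), which is widely expressed and pairs with MLX as well as MAX, and Mga (chr2:119722964-119795317), the scaffold of PRC1.6, both ended lower. Mnt had 31.9, 35.8 and 39.2 TPM in Control, 21.1, 17.5 and 17.9 in MCE1, 20.5, 21.4 and 22.2 in MCE2, 18.1, 21.0 and 21.2 in Day4, 15.9, 20.3 and 16.5 in Day6, and 23.8, 24.8 and 21.1 in Day8. All Control libraries lay above all others, whose groups mostly overlapped. The change was already there at MCE1, with 18.8 ± 1.97 TPM against 35.6 ± 3.64 in Control (SD, n = 3 each; log2 change -0.89, SE 0.11, limma adjusted p = 3.65e-06). Mnt was called lower in each later group too (-0.98 to -0.59). A rise at Day8 over Day6 (0.39, limma adjusted p = 0.0166) was lost without Day6 replicate 1 or 3 or Day8 replicate 2 (0.33 to 0.35). MCE2 against MCE1 was not called (0.18), but was called higher under median-ratio scaling (0.26).

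Mga was called lower than Control from MCE2 on. Its libraries had 18.2, 18.7 and 21.5 TPM in Control, 17.0, 17.6 and 14.4 in MCE1, 10.4, 13.3 and 12.5 in MCE2, 11.1, 9.31 and 12.0 in Day4, 9.58, 12.3 and 10.1 in Day6, and 10.8, 12.6 and 10.4 in Day8. From MCE2 on, every library lay below every Control and MCE1 library. All MCE1 libraries also lay below every Control library, though MCE1 was not called against Control (-0.24, limma adjusted p = 0.128) except with array weights (limma adjusted p = 0.0363). MCE2 was called (-0.65, SE 0.13, limma adjusted p = 0.000313). MCE2 was also lower than MCE1 (-0.41, limma adjusted p = 0.0157), a call that ended without MCE1 replicate 1 or 2 or MCE2 replicate 1 (-0.38 to -0.32). The genes most like Mga were Dicer1, which cuts microRNA precursors, Ice1 and Dync1h1, the dynein heavy chain (r 0.97 to 0.98), and those most like Mnt were Spred3, Ripor1 and Wdr35 (r 0.91 to 0.93).

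**Figure D2:**
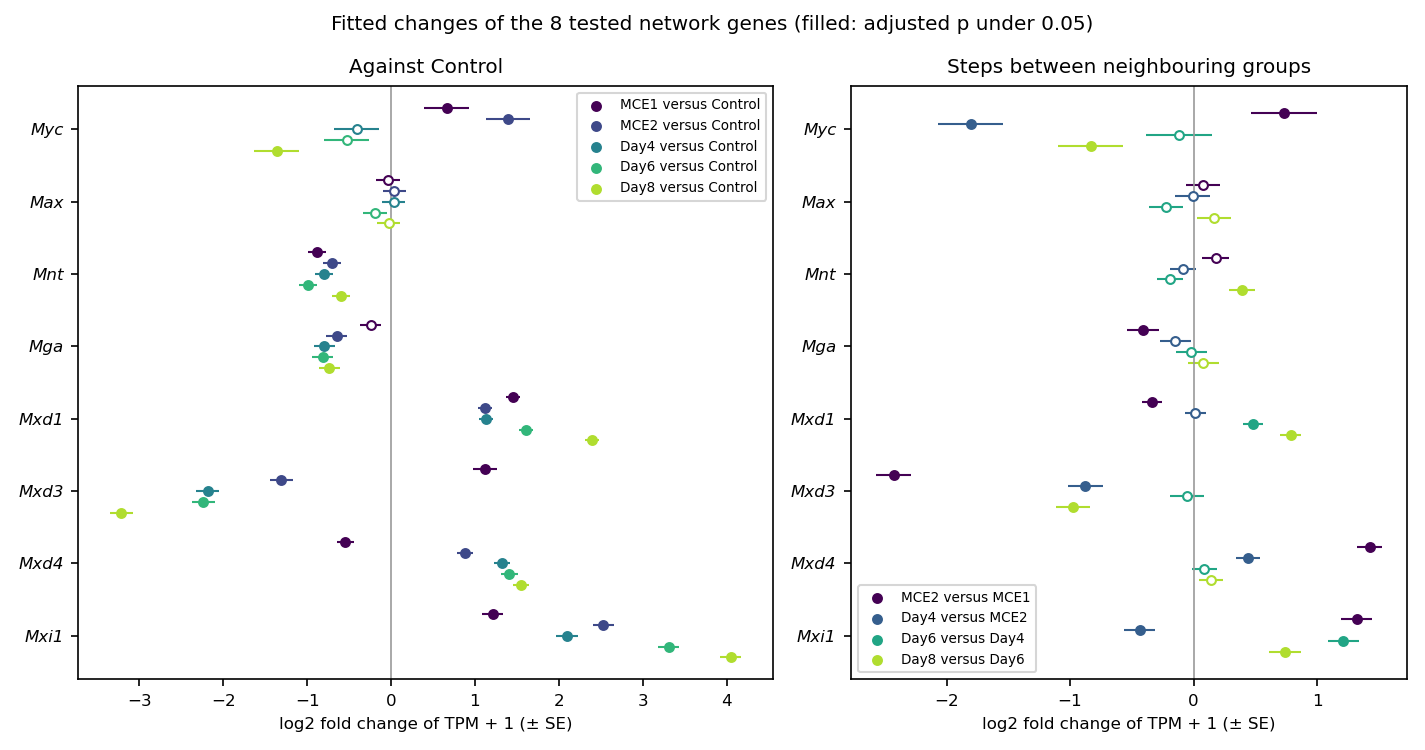
Log2 changes of TPM + 1 with their SE (horizontal axes) for the 8 tested genes, each later group against Control on the left and the 4 steps between neighbouring groups on the right; filled points are called at an adjusted p under 0.05. Mxi1 and Mxd1 lie right of 0 in all 5 groups against Control and Mnt left of it, while Mxd3 lies at 1.12 for MCE1 and at -1.31 for MCE2 and Mxd4 at -0.55 and 0.88.

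Which network genes were called differed from step to step. With 8 genes, the counts are too coarse to compare the steps. MCE2 against MCE1 called 6 of 8 genes (42.8% of all tested genes, 17.7% higher and 25.2% lower), with Myc, Mxd4 and Mxi1 higher and Mxd1, Mxd3 and Mga lower. Day4 against MCE2 called 4 of 8 (51.6% of all genes, 29.6% higher and 22.0% lower), with Mxd4 higher and Myc, Mxd3 and Mxi1 lower. With 1 library left out, MCE2 against MCE1 called 4 to 6 genes and Day4 against MCE2 called 3 to 4. Day6 against Day4 called 2 of 8 (25.7% of all genes, 14.5% higher and 11.2% lower), Mxd1 and Mxi1, both higher. Day8 against Day6 called 5 of 8 (21.7% of all genes, 10.1% higher and 11.6% lower), with Mxd1, Mxi1 and Mnt higher and Myc and Mxd3 lower, but 3 of 8 without Day6 replicate 3 or without Day8 replicate 2. Myc and Mxi1, an activator and a repressor of the same targets, were thus both called higher at MCE2 than at MCE1 and both called lower at Day4 than at MCE2. As given above, the first of these calls for Myc and the second for Mxi1 were each lost on leaving out a single library, such as MCE2 replicate 3.

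Sums over the network show how its composition shifted. The TPM of the 5 antagonists that pair with MAX and recruit SIN3 (Mxd1, Mxd3, Mxd4, Mxi1 and Mnt) summed to 176 to 213 in Control, 190.2 to 195 in MCE1, 280 to 307 in MCE2, 317 to 383 in Day4, 398 to 427 in Day6 and 463 to 524 in Day8. Divided by Myc plus Mycn, that was 4.09 to 5.65 in Control, 2.48 to 4.13 in MCE1, 2.60 to 2.85 in MCE2, 8.17 to 17.6 in Day4, 11.3 to 22.0 in Day6 and 26.0 to 34.3 in Day8. MCE2 thus lay below Control with antagonist and Myc levels both above it, while all libraries of Day4 and later lay above all earlier ones. In Day4, Day6 and Day8 alike, replicate 1 had the highest ratio and the lowest Myc. These are ratios of transcripts, given without a test, and say nothing of protein.

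**Figure D3:**
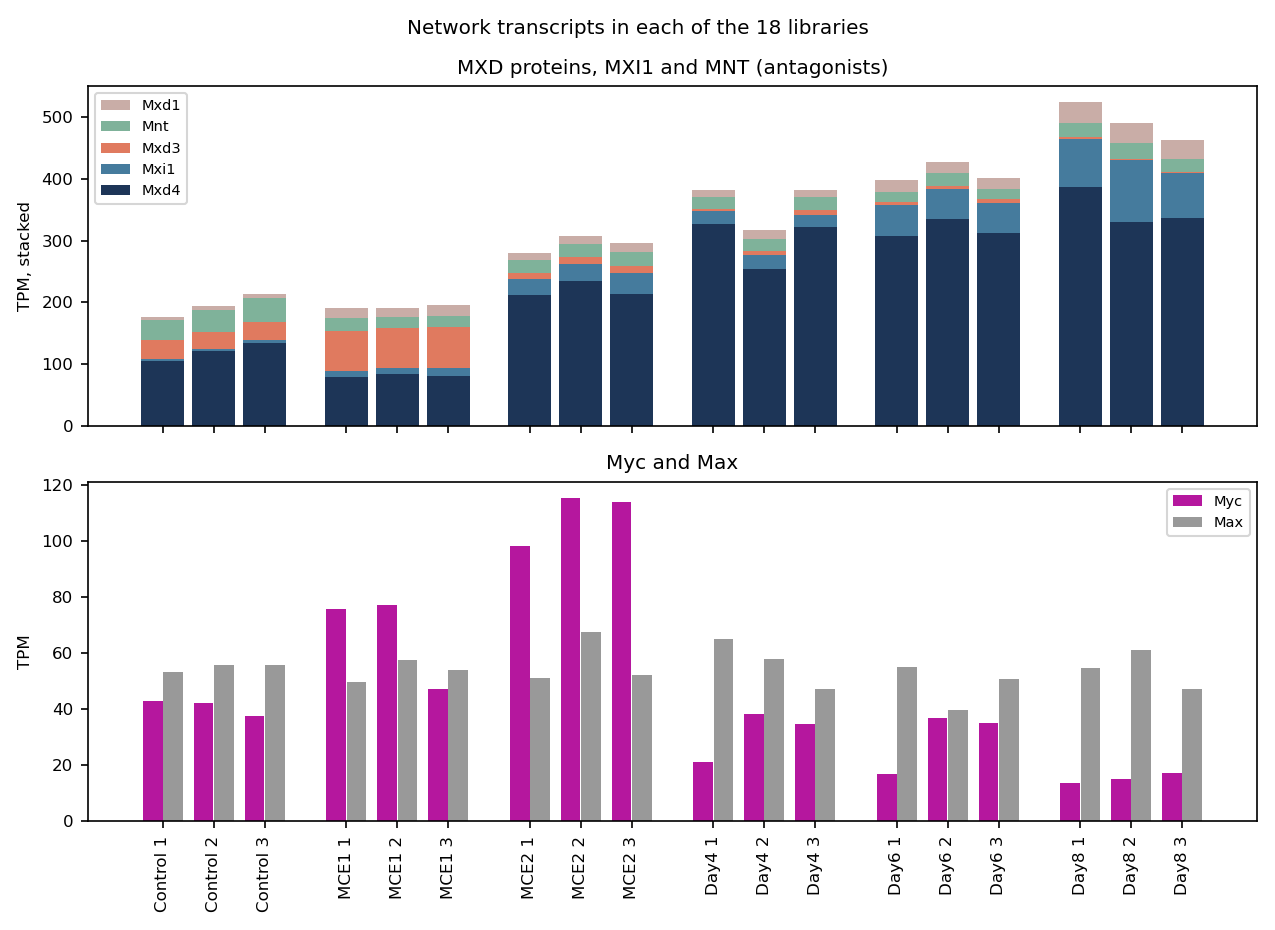
Upper panel: TPM of the 5 antagonists stacked in each of the 18 libraries; lower panel: TPM of Myc and Max in the same libraries (horizontal axis: group and replicate). The stack grows to 463 to 524 TPM in Day8 and is mostly Mxd4 in every group but MCE1, while Myc exceeds Max in all MCE2 libraries and stays below it in all libraries of Day4, Day6 and Day8.

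The make-up of the antagonist sum turned over at the MCE2 stage. Mxd3 made up 33.5 to 34.2% of it in the MCE1 libraries, against 14.0 to 17.4% in Control, and 3.72 to 4.02% in MCE2. By Day8 its share was 0.406 to 0.524%. Mxd4 supplied 59.6 to 62.9% in Control, 41.3 to 44.1% in MCE1, 72.1 to 76.4% in MCE2, 80.2 to 85.6% in Day4, 77.1 to 78.5% in Day6 and 67.4 to 73.6% in Day8. Its share was thus lowest in MCE1 and highest in Day4. Mxi1 grew to 15.1 to 20.4% in Day8, against 2.03 to 2.23% in Control. The summed dividing cell markers were, like Mxd3, highest in MCE1 and lowest in Day8. The summed fat cell markers were, like Mxd4, higher in every library from Day4 on than in any earlier one (3687 to 4000 TPM in MCE2 and 19206 to 35291 TPM from Day4 on). The part of these markers in the results was not tested.

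Genes that MYC is known to activate were split at MCE2, where Myc was highest. Of a list of 64 growth targets (ribosome building, nucleotide and polyamine synthesis, translation, glycolysis, cycle), 30 were called higher and 11 lower at MCE1 than in Control, where 22.0% of all tested genes were higher and 29.4% lower. At MCE2, 20 were called higher and 24 lower than Control, with a list median of -0.03 against -0.17 over all genes, of which 23.4% were higher and 39.1% lower. Median-ratio scaling changed these splits to 36 higher of 42 called at MCE1 and 27 higher of 44 at MCE2. Quantile normalization gave 29 higher of 43 called at MCE1 and 21 higher of 46 at MCE2. Against MCE1, 10 were higher and 31 lower at MCE2 (all genes 17.7% and 25.2%). Day4 against MCE2, the step at which Myc fell, called 6 higher and 51 lower (median -0.62, against 0.07 over all genes, of which 29.6% were higher and 22.0% lower). Day8 called 6 higher and 52 lower than Control, with a median of -1.15 against -0.11 over all genes, of which 31.7% were higher and 39.7% lower. At Day4 against MCE2, all 10 dividing cell markers were also called lower and 8 of 10 fat cell markers higher. The part of Myc in the counts of targets was not tested.

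Single targets parted ways. The largest fall on the list at MCE2, of Hspd1, a mitochondrial chaperone, rested on libraries of 6.34 to 36.3 TPM in MCE2 and 84.5 to 732 TPM in Control (log2 change -3.49, SE 1.14). Srm, the spermidine synthase of the polyamine pathway, followed Myc, with 436 ± 22.7 TPM at MCE2 against 245 ± 15.8 in Control (SD, n = 3 each; log2 change 0.83, limma adjusted p = 1.37e-09) and a fall by 1.29 on the log2 scale at Day4 relative to MCE2. Ncl, a nucleolar protein of ribosome building, was called higher at MCE1 (0.38) and lower at MCE2 (-0.24) than in Control, and Odc1, the first enzyme of polyamine synthesis and a classic MYC target, was lower at MCE1 and MCE2 (-0.21 and -0.66). Nop56, a nucleolar protein that guides ribosomal RNA methylation, averaged 54.0 ± 18.4 TPM at Day8 against 332 ± 6.04 in Control (SD, n = 3 each; log2 change -2.67, limma adjusted p = 2.09e-09). Mcm7, a subunit of the replicative helicase, fell by 3.04 on the log2 scale at Day8. Among the 6 called higher at Day8 were genes of glucose and pyruvate use. These were Pdk1, a kinase that inhibits pyruvate dehydrogenase, at 3.63, Hk2, the first enzyme of glycolysis, at 2.60, and Ldha, lactate dehydrogenase, at 1.46. Hk2 was also among the 3 genes most like Mxi1 (r 0.98), with Dnaja3, a mitochondrial chaperone, and Plod1, a collagen lysyl hydroxylase.

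The E-box was frequent among these targets, at 25.0% (14 of 56 with a window), against 11.5% of tested genes. Of a panel of 12 MYC targets, Ldha and Cdk4 were the only 2 with CACGTG in a window. Ncl, Odc1, Cad, Nop56, Gnl3 and Tfrc had windows without it, and Npm1, Srm, Fbl and Ccnd2 had no window. Ldha and Cdk4 moved in opposite directions. Their sequences around the motif, again with CACGTG in capitals, come from RefSeq's GRCm38.p6 windows on the plus strand.
Ldha, chr7:46845647-46845676: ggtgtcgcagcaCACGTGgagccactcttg
Cdk4, chr10:127063351-127063380: atggcagccagtCACGTGccacacagcgta

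Ldha had 2972 ± 85.5 TPM at Day8 against 1081 ± 49.4 in Control (SD, n = 3 each). Cdk4, a kinase that starts the cell cycle, had 295 ± 22.0 TPM at Day8 against 779.8 ± 2.84 in Control (SD, n = 3 each; log2 change -1.40, limma adjusted p = 6.02e-13), and was already lower at MCE2 (-0.65), when Myc was highest. CACGTG was counted 2 times in the windows of Ldha and 4 times in those of Cdk4. Windows of a gene can overlap, so a site may be counted more than once.

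Genes that MYC is known to repress were a mixed set. Of 19 listed, 18 were tested, and 5 were called higher and 9 lower at MCE1 than in Control, while Day8 had 11 higher and 7 lower (median 0.93, against -0.11 over all genes). Of all tested genes 22.0% were higher and 29.4% lower at MCE1, and 31.7% and 39.7% at Day8, so the share that was lower at Day8 lies near that of all genes. Quantile normalization gave 7 higher and 8 lower at MCE1. At Day4 against MCE2, the step at which Myc fell, 10 were higher and 0 lower, where 29.6% of all genes were higher and 22.0% lower. Called there were Btg2, an antiproliferative gene, with 22.7 ± 0.939 TPM at Day4 against 4.53 ± 0.920 in MCE2 (SD, n = 3 each; log2 change 2.11, limma adjusted p = 6.93e-10), Cdkn2b, an inhibitor of cycle kinases (1.78), and Col1a2, a collagen chain (1.43). Cebpa, a master regulator of fat cells, was already called higher before Myc fell. It had 113 ± 17.2 TPM at MCE2, where Myc peaked, against 3.57 ± 0.356 in Control (SD, n = 3 each; log2 change 4.64, limma adjusted p = 5.29e-13). Cebpa is also among the fat cell markers, and Col1a2 among the fibroblast or preadipocyte markers. The part of Myc in these changes was not tested.

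**Figure D4:**
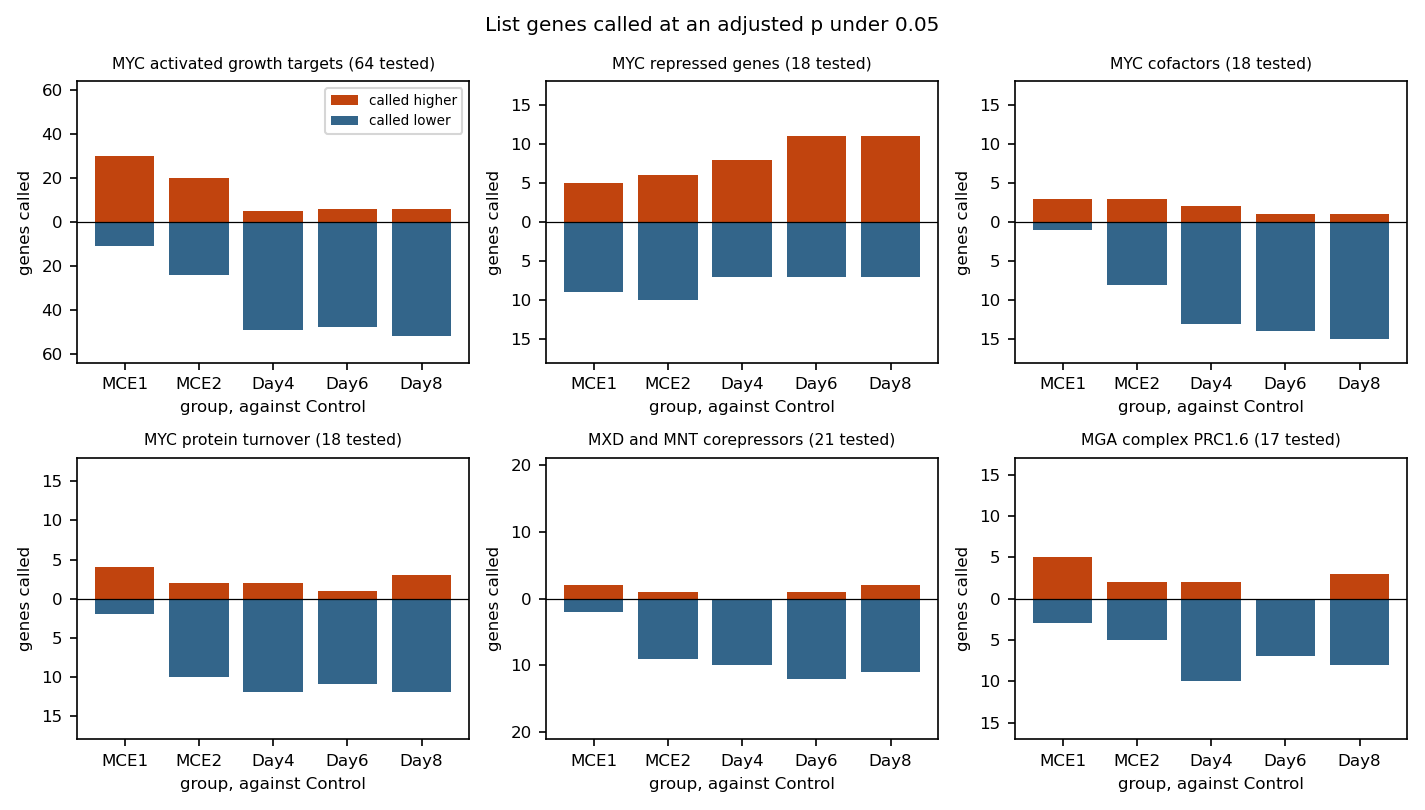
Numbers of list genes called higher (up, red) and lower (down, blue) than Control at MCE1, MCE2, Day4, Day6 and Day8, by list; the vertical axes count genes and run to the number tested. The growth targets show 30 higher and 11 lower at MCE1, and 6 higher and 52 lower at Day8.

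Transcripts of most MYC cofactors ended lower. Of 18 MYC cofactors, which open chromatin or release polymerase, 8 were called lower and 3 higher at MCE2 than in Control, close to the 39.1% lower and 23.4% higher of all genes, and 15 lower and 1 higher at Day8 (median -0.74, against -0.11 over all genes, of which 39.7% were lower and 31.7% higher). Under median-ratio scaling 3 were lower and 6 higher at MCE2, and under quantile normalization 5 and 5. Hcfc1, a chromatin scaffold, averaged 33.9 ± 6.25 TPM at Day8 against 119.3 ± 4.71 in Control (SD, n = 3 each; log2 change -1.80, limma adjusted p = 5.91e-09), and Ruvbl1, an ATPase of the TIP60 complex, fell by 1.41 on the log2 scale. Paf1, part of an elongation complex, was called higher at MCE1 and MCE2 (0.97 and 0.82). At MCE1 4 cofactors were called, 3 of them higher, where 22.0% of all genes were higher and 29.4% lower. Median-ratio scaling called 7, 6 of them higher, and quantile normalization 7, 4 of them higher.

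Of 18 genes of MYC protein turnover, 10 were lower and 2 higher at MCE2 than in Control (all genes 39.1% lower and 23.4% higher), or 8 and 4 under median-ratio scaling. At Day8 12 were lower and 3 higher (all genes 39.7% and 31.7%). Skp2, a ubiquitin ligase subunit that targets MYC, had 22.6 ± 1.41 TPM at MCE2 and 9.23 ± 0.697 at Day8, against 53.7 ± 2.84 in Control (SD, n = 3 each; log2 changes -1.22 and -2.42, limma adjusted p = 2.17e-08 and 2.29e-12). Fbxw7, the subunit that recognises phosphorylated MYC, was not called at either (-0.51 and -0.35, SE 0.37). Plk1 and Aurka, kinases of mitosis that also stabilise MYC family proteins, fell by 3.44 and 2.94 on the log2 scale at Day8.

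Transcripts of the corepressors that MXD proteins and MNT recruit were mostly lower or not called. Of 21 genes of the SIN3 and histone deacetylase complexes, 9 were lower and 1 higher at MCE2 than in Control, where 39.1% of all genes were lower and 23.4% higher, so the share that was lower lies near that of all genes. At Day8 11 were lower and 2 higher (median -0.39, against -0.11 over all genes, of which 39.7% were lower and 31.7% higher). At MCE1 2 were higher and 2 lower (all genes 22.0% and 29.4%), and 2 in all were called without Control replicate 3. Median-ratio scaling gave 5 higher and 1 lower there, and quantile normalization 4 and 1. Hdac1, a deacetylase of these complexes, was higher at MCE1 (134 ± 5.37 TPM) and lower at Day8 (43.6 ± 8.34 TPM), against 104 ± 2.61 TPM in Control (SD, n = 3 each; log2 changes 0.36 and -1.25, limma adjusted p = 0.00371 and 4.15e-09). Sin3b, a scaffold that MXD proteins bind, was lower at MCE1 (-0.56) and not called at Day8 (-0.12). The other scaffold, Sin3a, was listed at 6.86, 0.813 and 0 TPM in Control and at 0 in all Day4 and Day6 libraries, and was not called; these zeros too can be failed estimates.

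The PRC1.6 partners of Mga were mixed. Of 17, 5 were higher and 3 lower at MCE1 (5 called in all without Control replicate 3), 2 higher and 5 lower at MCE2, and 3 higher and 8 lower at Day8, against Control. Over all genes 22.0% were higher and 29.4% lower at MCE1, 23.4% and 39.1% at MCE2, and 31.7% and 39.7% at Day8, so these counts do not set the list apart. Median-ratio scaling gave 7 higher and 2 lower at MCE1, 5 higher and 4 lower at MCE2, and 4 higher and 6 lower at Day8. E2f6, the repressor that shares this complex, had 7.79 ± 1.04 TPM at MCE1 against 14.3 ± 1.30 in Control (SD, n = 3 each; log2 change -0.80, limma adjusted p = 0.00529), while L3mbtl2 and Pcgf6, core subunits, were not called at MCE1 and were lower at Day8 (-0.65 and -0.46).

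The neighbouring MLX branch, in which MLX pairs with glucose sensors in place of MAX, was mostly higher in transcripts. Of 5 genes 4 were tested, and all 4 were called higher at MCE2 and at Day8 than in Control, as were 23.4% and 31.7% of all genes. At MCE1, Day4 and Day6, 3 were called higher and 0 lower, where 22.0%, 29.7% and 30.2% of all genes were higher. Mlx was not called at MCE1 (0.30), nor was Mlxip, a gene of this branch, at Day4 or Day6 (0.21 and 0.22). Mlx itself averaged 47.0 ± 4.57 TPM at MCE2 against 23.5 ± 1.92 in Control (SD, n = 3 each; log2 change 0.97, limma adjusted p = 9.08e-06). Txnip, a target of that branch that limits glucose uptake and is also on the list of genes MYC represses, had 364 ± 33.8 TPM at Day8 against 54.7 ± 8.97 in Control (SD, n = 3 each; log2 change 2.72, limma adjusted p = 9.66e-12). Mlxipl, which encodes ChREBP, was listed at 0 in all 18 libraries and was not tested. Its zeros too can be failed estimates and do not show that it was absent.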

How the data were processed

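Polyadenylated RNA of 3T3-L1 cells was sequenced in 18 libraries. Each library has 1 deposited table of TPM by gene. Per the submitters' processing notes, the authors used FastQC, cutadapt, HISAT2, StringTie and the mm9 build; versions, annotation, filters and strand setting are not given in the sources used here.

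Groups came from the sample titles. Of 25209 genes, 12 listed at another locus in 1 table were left out. The 12695 genes that reached 1 TPM in 3 or more libraries were fitted as log2(TPM + 1), unscaled, with limma 3.58.1 in R 4.3.3 (a mean for every group over all 18 libraries, with trend and robust variance moderation and 12 residual degrees of freedom). The 9 comparisons set the 5 later groups against Control and every group from MCE2 on against the one before it, and used 2-sided moderated tests adjusted by the Benjamini-Hochberg method. The fit was also run on simulated normal values with 200 genes changed, far fewer than were called here. That run therefore does not test the fit under changes as broad as these. Other tools were numpy 2.4.6, pandas 2.3.3, matplotlib 3.10.9 and Python 3.11.15.

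The members and the 7 pathway lists, the 64 growth targets among them, were chosen from general knowledge, with earlier results of these data known. Besides members, the text could name up to 4 called genes per list and comparison with the largest log2 change and at least 10 TPM in the higher group, a panel of partners and targets, and the 3 genes most like each member. Alternatives were other pseudocounts, filters, scalings and weights, a replicate block, each comparison's 6 libraries alone and leaving out each library. Depth is unknown, so the spread between libraries sets the precision.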

Additional observations from a re-analysis of the deposited data

How the results depend on the processing

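Over 26 other settings, the 72 log2 changes of the 8 tested genes in the 9 comparisons kept their call in 1831 of 1872 cases and reversed in 0. In 35 cases a call was lost and in 6 one was gained, spread over 11 of the 72. Besides those in the report, the Myc calls for MCE1 against Control, MCE2 against MCE1 and Day8 against Day6 were lost without the filter (limma adjusted p = 0.0673, 0.0551 and 0.0516), the first also with a pseudocount of 0.1, and the last, like that of Mnt, with the 6 libraries alone. Array weights gained Mga at MCE1 (-0.24) and Myc at Day6 (-0.66) against Control and lost Myc at Day8 against Day6 (-0.69). Quantile normalization gained Mga at Day4 against MCE2 (-0.24) and Mnt at MCE2 against MCE1 (0.28). Network genes called for Day8 against Day6 numbered 5, 3 to 5 with 1 library left out, and 3 with the 6 libraries alone, a fit with fewer samples, in which 1136 of all genes were called in place of 2761. Of 1638 list counts, 31 moved by over 1.5 times. Over all tested genes and all 6 groups, replicate numbers did not pair the libraries. Deviations of same-numbered libraries correlated at -0.074 to 0.093, and 4 of 18 libraries correlated best with their own number. With the replicate number as a block the same numbers of network genes were called, with 6525 of all genes in place of 6526 at MCE1 against Control. These figures do not test single genes such as Myc, whose replicate 1 was lowest in Day4, Day6 and Day8.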
